A study of Homo sapiens with 8 samples.

Results

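The replication-dependent histone genes encode the H1, H2A, H2B, H3 and H4 proteins that package newly made DNA, and they lie side by side in clusters on chromosomes 1 and 6. They were taken as the protein-coding genes of the GENCODE annotation on hg19 whose symbol is H2AC, H2BC, H3C or H4C followed by digits, or H1-1 to H1-6. This gave 64 of 19811 protein-coding genes: 6 for H1, 16 for H2A, 16 for H2B, 13 for H3 and 13 for H4. H2BC7, H2BC8 and H4C6 were not matched by symbol. H4C2 and H2AC18 stand in the annotation under the older symbols HIST1H4B and HIST2H2AA3, and were left out except where stated.

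Peak lists from ChIP-Seq in PC3, a prostate cancer cell line that was derived from a bone metastasis, were examined around the transcription start sites (TSSs) of these genes. The groups were PC3 cells labelled wild type (WT) and PC3 cells with DAXX stably knocked down by an shRNA (K/D), and each line was immunoprecipitated for DAXX, for DNMT1 and for a histone H3 form labelled DMHH3(Lys4), whose prefix the labels do not spell out and which is called H3(Lys4) here. The labels give the control genotype as wild type, whereas the series text speaks of a control shRNA line. K/D cells were grown with puromycin, chromatin of both lines was fixed with a protein crosslinker (DSG) besides the DNA crosslink, and the knockdown is a single stable line. Each group held 1 library, so no test between the lines was possible, and all values below describe single libraries. DAXX expression is not measured by these lists, so the knockdown itself was not checked here. The 6 libraries with a list had 12050101 to 18705056 mapped tags, and the share of tags that lay in peaks in WT cells was 15.77% in the DAXX, 0.26% in the DNMT1 and 23.94% in the H3(Lys4) library, where the K/D libraries had 6.83%, 0.07% and 15.07%. The K/D share was thus the lower one with each antibody, and a site that is missing from a list only failed the limits of the peak caller.

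Histone H2A pairs with H2B and H3 pairs with H4 in the nucleosome core, while H1 binds the linker DNA between nucleosomes. Cluster genes have no introns in their coding part, are transcribed in S phase under the coactivator NPAT in the histone locus body, and give mRNAs that end in a stem-loop bound by SLBP. DAXX is a chaperone that deposits the replication-independent variant H3.3 together with ATRX and also acts as a transcriptional co-repressor. DNMT1 copies DNA methylation after replication, and methylation of H3 at lysine 4 flanks active promoters and marks enhancers. In all 64 genes the canonical transcript had 1 exon, with a median length of 489.5 bp.

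The sequence around the starts is shown first, because the promoters of the histone types differ from each other and from the bulk of promoters. Among the 64 genes, H2A and H2B genes stood in 10 head-to-head pairs that share the DNA between their starts, which were 194 to 251 bp apart. The regions between the starts of a pair with DAXX peaks in both lines (chr6:27775708-27775950) and of a pair with a WT peak alone nearby (chr1:149858233-149858467) are given on the plus strand of hg19. Capitals mark TATAAA (the TATA box), CCAAT (bound by NF-Y), ATTTGCAT (the octamer), GGTCCG (the core of the HINFP site of H4 promoters) and TTTCGCGC (an E2F site), on either strand.

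Between H2BC13 and H2AC13: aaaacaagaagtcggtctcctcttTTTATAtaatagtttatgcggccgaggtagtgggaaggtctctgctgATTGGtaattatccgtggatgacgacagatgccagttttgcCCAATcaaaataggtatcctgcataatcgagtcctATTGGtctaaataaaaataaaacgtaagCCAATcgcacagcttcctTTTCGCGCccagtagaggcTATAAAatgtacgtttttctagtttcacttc

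Between H2BC21 and H2AC20: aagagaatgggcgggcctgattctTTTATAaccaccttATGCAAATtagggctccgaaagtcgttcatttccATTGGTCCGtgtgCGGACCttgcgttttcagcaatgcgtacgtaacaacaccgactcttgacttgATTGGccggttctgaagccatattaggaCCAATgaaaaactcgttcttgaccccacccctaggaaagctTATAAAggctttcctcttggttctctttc

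Both regions hold a TATA box at either end, one for each gene, and several CCAAT boxes between them. The octamer, a site of POU2F1, is present between H2BC21 and H2AC20 and not between H2BC13 and H2AC13, where the E2F site is. In H4 promoters the GGTCCG core lay just upstream of the start. It is shown in 30 bases on the strand of each gene for H4C8 (chr6:26285791-26285820), H4C3 (chr6:26104102-26104131), H4C5 (chr6:26204780-26204809) and H4C16 (chr12:14924093-14924122), the 4 H4 genes with the smallest distance to a WT DAXX peak.

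H4C8: agtcttcaattaGGTCCGaattcccggcat

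H4C3: tgttttcaatcaGGTCCGccaagtttgtat

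H4C5: agtcttcatttaGGTCCGaattcccggcat

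H4C16: tgttttcaaacaGGTCCGcatcgagagact

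In windows from 250 bases before to 50 after the canonical start, searched on both strands, TATAAA was found in 43 of 64 histone promoters (67.2%) against 9.74% of all promoters. CCAAT was found in 55 (85.9% against 35.9%), in all H1, H2A, H2B and H3 promoters and in 4 of 13 for H4. ATTTGCAT was found in 24 (37.5% against 1.58%), 12 of them H2A and 12 H2B promoters, which overlap in the pairs, with its first base at a median of -49 in H2B promoters. GGTCCG was found in 14 (21.9% against 14.7%), and 11 of the 13 H4 promoters held it, at a median of -46. An E2F site, TTTGGCGC or TTTCGCGC, was found in 13 (20.3% against 1.52%), 6 of them H2A and 6 H2B promoters. The windows of paired genes overlap, so the same site can be counted for both genes of a pair, with this and the other motifs. TGAGTCA, the AP-1 site that 34.9% of all WT DAXX peaks hold, was found in 0 of 64 histone promoters against 3.55% of all promoters. Median GC content was 43.8% in histone promoters and 63.7% in all promoters.

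A gene was counted with a peak when a peak centre lay within 10 kb of one of its TSSs. In WT cells 41 of 64 histone genes had a DAXX peak (64.1%, exact 95% binomial interval 51.1 to 75.7%), where 51.2% of all protein-coding genes did. In K/D cells 24 histone genes had one (37.5%, 25.7 to 50.5%), against 41.8% of all genes. The share thus lay above that of all genes in WT cells and below it in K/D cells, although the value of all genes was inside the interval in both lines. For H3(Lys4) 56 genes (87.5%, 76.8 to 94.4%) had a region in WT and 54 (84.4%, 73.1 to 92.2%) in K/D cells, against 71.3% and 70.4% of all genes, which were outside both intervals. Within 1 kb the order turned, with a region centre at 28.1% of histone genes in WT and 29.7% in K/D cells, against 46.2% and 42.4% of all genes. For DNMT1 2 genes (3.12%, 0.381 to 10.8%) had a peak in WT and 0 in K/D cells (up to 5.60%), against 2.54% and 0.888%. The intervals cover counting error only and treat genes as separate, whereas neighbours in a cluster share peaks.

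**Figure D1:**
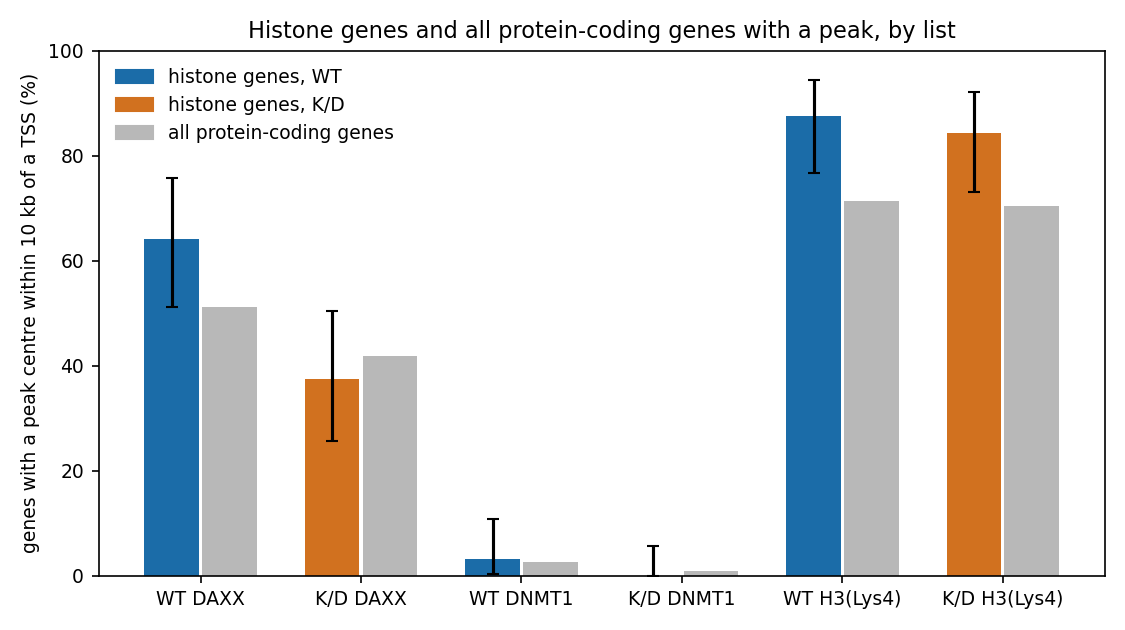
Percent of genes with a peak centre within 10 kb of a TSS in each of the 6 lists, for the 64 histone genes (coloured bars, exact 95% binomial intervals) and for all 19811 protein-coding genes (grey bars). The histone bars stood at 64.1% and 37.5% for WT and K/D DAXX and at 87.5% and 84.4% for WT and K/D H3(Lys4), and near 0 for DNMT1.

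Counted once each, 25 WT DAXX peaks and 11 K/D DAXX peaks lay within 10 kb of a histone TSS. The histone windows spanned 532 kb and held 47.0 WT and 20.7 K/D peaks per Mb, against 37.3 and 25.8 per Mb in the windows of all protein-coding genes. Overlapping windows were merged, so the closely packed histone starts share theirs, while all genes spanned 412 Mb. Per gene both lines had fewer peaks, with 25 and 11 for 64 genes against 15388 and 10644 for 19811 genes. In WT cells 21 genes had 1 peak, 16 had 2 and 4 had 3 within 10 kb (H2AC25, H2BC26, H4C5 and H2AC8), and in K/D cells 19 had 1 and 5 had 2. The median distance from a histone TSS to the nearest peak centre was 5281 bp in WT and 19490 bp in K/D cells, against 9220 and 15495 bp over all genes. When the WT list was cut to the length of the K/D list in deposited order, 28 histone genes (43.8%) kept a WT DAXX peak against 39.6% of all genes, beside 24 (37.5%) and 41.8% in K/D cells.

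Gene by gene, 24 of 64 (37.5%) had a DAXX peak in both lines, 17 (26.6%) in WT alone, 0 in K/D alone and 23 (35.9%) in neither. The 17 were H2BC21, H2AC20 and H2AC21 on chromosome 1, H1-2, H2BC4, H2AC6, H4C4, H3C4, H2AC7, H4C5 and H4C8 in the large group of chromosome 6, and H2BC11, H2AC11, H4C9, H3C12, H2AC17 and H2BC17 farther along it. Over all protein-coding genes these shares were 35.4%, 15.8%, 6.35% and 42.5%. Each gene with a K/D peak within 10 kb thus also had a WT peak there, though not every K/D peak overlapped a WT peak. Of the 25 WT peaks, 10 overlapped a K/D peak by at least 1 bp (40.0%, 21.1 to 61.3%), against 46.1% of WT peaks near any protein-coding gene. The shared WT peaks were nearest to H4C1, H3C2, H2BC3, H4C3 and H2AC8 in the large group, to H2AC12, H2AC13 and H2AC15 farther along chromosome 6, to H2AC25 on chromosome 1 and to H4C16. Of the 11 K/D peaks, 10 overlapped a WT peak (90.9%, 58.7 to 99.8%), against 66.6%, and the exception lay 6389 bp upstream of H4C16 in a UTR of H2AJ, a neighbouring H2A variant gene.

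Genes with a DAXX peak centre within 1 kb numbered 9 in WT (14.1%, against 25.6% of all genes) and 4 in K/D cells (6.25%, against 19.2%). Closest was H2AC13, an H2A gene with a peak centre 4 bp from its start in WT and 13 bp in K/D cells. Of the 173 bases of that WT peak 90 lie in the region between H2BC13 and H2AC13 printed above, as do 98 of the 171 bases of the K/D peak. H2BC13, the H2B partner, was 240 and 231 bp from the same peaks. H2BC3, an H2B gene without a head-to-head partner among the genes counted, had peaks at 622 bp in WT and 601 bp in K/D cells. H4C3 had them at 991 and 976 bp.

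The other 5 genes had a WT peak within 1 kb and the nearest K/D peak more than 10 kb away. At H4C8 the WT peak centre lay 28 bp inside the transcript, and the nearest K/D peak was 10516 bp away. H2AC21 was 633 bp from a WT peak and 44934 bp from a K/D peak. H2AC7 was 723 bp from a WT and 19718 bp from a K/D peak. H2AC17 was 921 bp and H2BC4 985 bp from a WT peak, with the nearest K/D peaks at 56014 and 19001 bp. These 5 peaks stood at 31.7% (H4C8), 52.2% (H2AC21), 68.6% (H2BC4), 87.8% (H2AC7) and 92.5% (H2AC17) of the WT list, so 4 of them came after its midpoint.

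By histone type, WT DAXX peaks lay within 10 kb of 13 of 16 H2A genes, 10 of 16 H2B genes, 8 of 13 H4 genes, 7 of 13 H3 genes and 3 of 6 H1 genes. K/D peaks did so for 7, 6, 4, 5 and 2 genes in the same order. The median distance to a WT peak was 1536 bp for H2A, 4384 bp for H2B, 5413 bp for H3, 5582 bp for H4 and 12076 bp for H1. Assigned to the nearest start among the genes counted, 11 WT peaks fell to H2A, 6 to H2B and 6 to H4. H3 and H1 received 1 each. The H3 peak lay 3080 bp from H3C2 but 1767 bp from HIST1H4B, the H4 gene left out for its older symbol. With HIST1H4B counted, that peak would fall to H4 instead of H3. The nearest gene to a WT peak was H2AC13 for H2A, H2BC13 for H2B, H4C8 for H4, H3C3 (1049 bp) for H3 and H1-6 (3211 bp), a testis H1 gene, for H1. H1-4, which encodes a major linker histone of somatic cells, was 33404 bp from the nearest WT peak. With 6 to 16 genes per type that share windows, the order of types was not tested.

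**Figure D2:**
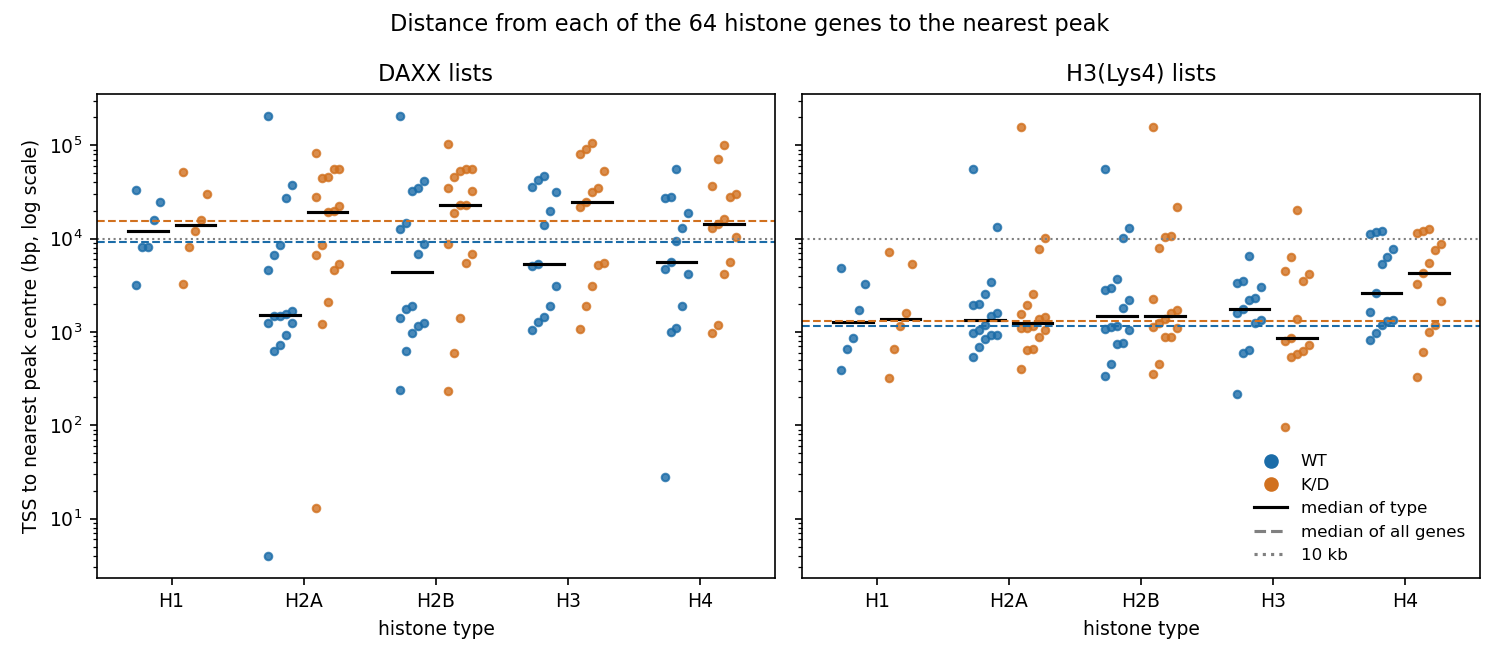
Distance from each histone TSS to the nearest peak centre on a log axis, by histone type, for the DAXX (left) and H3(Lys4) (right) lists in WT and K/D cells. Each point is a gene, black bars are the medians of the types, dashed lines the medians of all genes and the dotted line is 10 kb. K/D DAXX medians lay above the WT medians in all 5 types, with the H2A median at 1536 bp in WT and 19490 bp in K/D cells, while the H3(Lys4) points of the lines overlapped.

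All 10 head-to-head pairs found joined an H2A and an H2B gene, and together they held 20 of the 64 genes. A pair with a gene that was not matched by symbol, such as H2BC7 or H2BC8, could not be counted. A WT DAXX peak lay within 10 kb of 9 pairs and within 2 kb of 7, a K/D peak within 10 kb of 5 and within 2 kb of 2. Among all protein-coding genes, taken singly, the shares within 10 kb were 51.2% and 41.8%. No share within 2 kb was computed for all genes, so the 2 kb counts have no comparison. The pairs with peaks in both lines at like distances were H2BC13/H2AC13 (4 bp in WT, 13 bp in K/D), H2AC15/H2BC15 (1233 and 1204 bp), H2AC14/H2BC14 (6608 and 6617 bp) and H2BC12/H2AC12 (8458 and 8475 bp). The peaks nearest to H2AC14/H2BC14 are the same ones as at H2BC13/H2AC13. H2AC25/H2BC26 lay 1245 bp from a WT peak and 5282 bp from a K/D peak. At the other pairs with a WT peak, H2AC17/H2BC17, H2BC4/H2AC6, H2BC11/H2AC11 and H2BC21/H2AC20, the nearest WT peak was at 921, 985, 1495 and 1680 bp and the nearest K/D peak at 56014, 19001, 22538 and 45981 bp. H2AC1/H2BC1, the pair that encodes testis H2A and H2B, was 208121 bp from a WT and 55309 bp from a K/D DAXX peak.

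The genes formed 6 groups with gaps of over 100 kb between them, plus H4C16 alone on chromosome 12. The large group on chromosome 6 (26017260 to 26285866, 28 genes) had 12 WT and 5 K/D DAXX peaks, within 10 kb of 19 and 11 of its genes. The last group of chromosome 6 (27775257 to 27861669, 16 genes) had 4 and 2 peaks, near 11 and 8 genes. The group between them (27093676 to 27115341, 5 genes) had 3 and 1 peaks, near 5 and 2 genes. The testis pair H2AC1 and H2BC1 (25723625 to 25727573) had no peak of any list within 10 kb.

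On chromosome 1 the group at 149754245 to 149859515 (10 genes) had 1 WT peak, 633 bp upstream of H2AC21, which lay within 10 kb of H2AC21, H2AC20 and H2BC21, and 0 K/D peaks. The pair H2AC25 and H2BC26 (228622478 to 228650805) had 3 WT peaks and 1 K/D peak. H4C16 had 2 peaks in each line.

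Only reads with a single location were kept upstream, and 7 of the 10 genes in the larger group of chromosome 1 have little unique sequence at their start. The share of 50-base words within 1 kb of the start that occur once in the genome was 0% for H3C14, H3C15, H4C14 and H4C15, 12.3% for H2AC19, 27.7% for H3C13 and 36.0% for H2BC18. It was at least 76.4% for all other histone genes. None of these 7 had a DAXX peak within 10 kb in either line, while 5 of 7 had an H3(Lys4) region in each. Without them 41 of 57 genes (71.9%) were near a WT DAXX peak (58.5 to 83.0%) and 24 (42.1%, 29.1 to 55.9%) near one of the K/D list. The 51.2% of all genes then lay below the WT interval, where it was inside that of all 64 genes, and the 41.8% in K/D cells stayed inside. Unique sequence was measured for the histone genes alone, so no genes of low unique sequence were taken out of the shares of all genes. Leaving the 7 out was chosen after the data were seen.

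**Figure D3:**
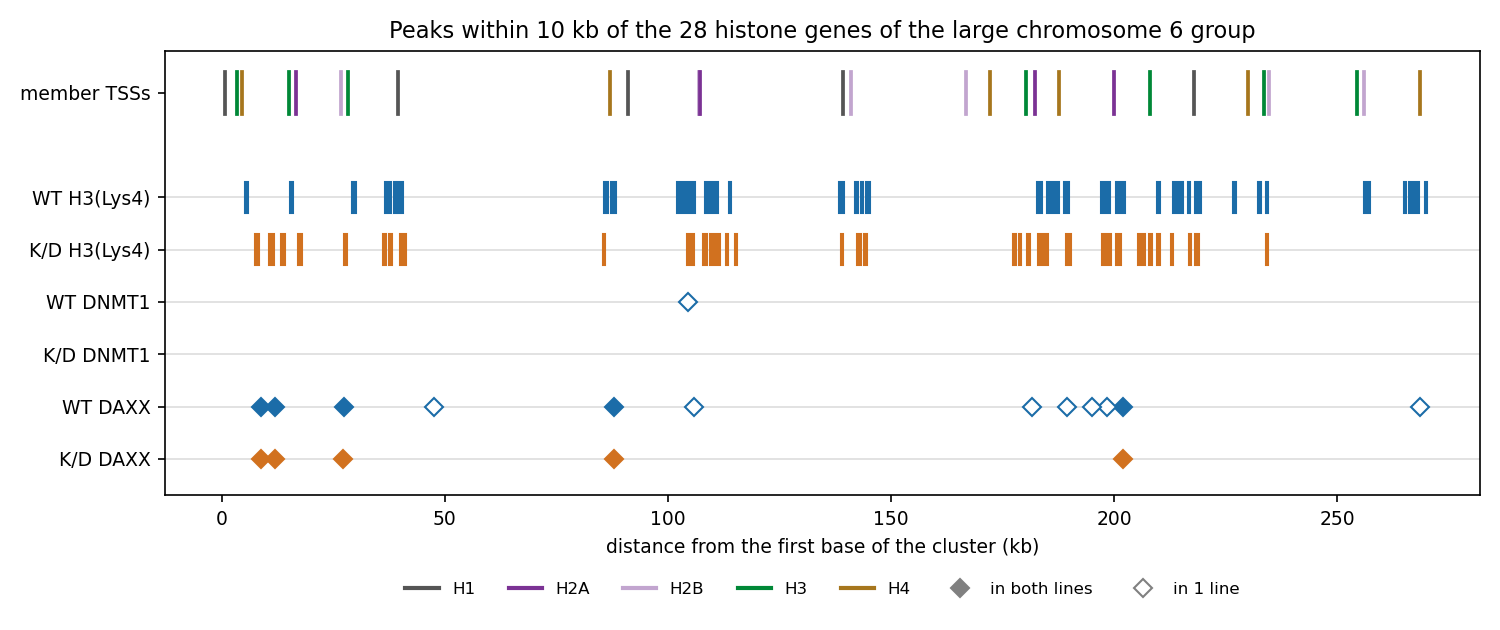
Map of the group of 28 histone genes on chromosome 6, in kb from its first base, with the TSSs coloured by histone type on top and the peaks within 10 kb of them below, 1 row per list. Boxes are H3(Lys4) regions to scale, diamonds are DAXX and DNMT1 peak centres, and filled diamonds overlap a peak of the other line. The 12 WT and 5 K/D DAXX peaks sat beside many H3(Lys4) regions, and the 5 K/D peaks all fell on WT peaks.

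Peaks near histone genes did not come from the top of the DAXX lists. The 25 WT peaks stood between 30.6% and 92.5% of the list in its deposited order (median 65.7%), with 0 in the first 25%, which held 23.6% of the 15388 WT peaks near any protein-coding gene. Of the 11 K/D peaks 1 (9.09%) was in the first 25%, against 24.6%. The 10 WT peaks with a K/D partner had a median place of 55.5% and the 15 without one 76.7%. From 25 to 50%, 50 to 75% and 75 to 100% of the WT list, 4 of 7, 5 of 9 and 1 of 9 peaks had a K/D partner, where 55.1%, 33.7% and 18% of WT peaks near any gene did.

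The first WT peak near a histone gene was at place 18293 of 59778 (chr6:27804834-27805006), 1233 bp downstream of the start of H2AC15, and the first K/D peak, at place 10182 (chr6:27804864-27805034), overlapped it. Second in WT was the H4C8 peak at place 18928 (chr6:26285648-26285820), which had no K/D partner and lay over the start of the gene. Next was a peak at place 21719 (chr6:26026006-26026178), 4215 bp from H4C1, shared with K/D cells, and 1388 bp from the H4 gene that the annotation calls HIST1H4B. In K/D cells the second was 8475 bp from H2AC12 (place 15099) and the next 1189 bp from H4C16 (place 17218), both shared with WT cells.

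**Figure D4:**
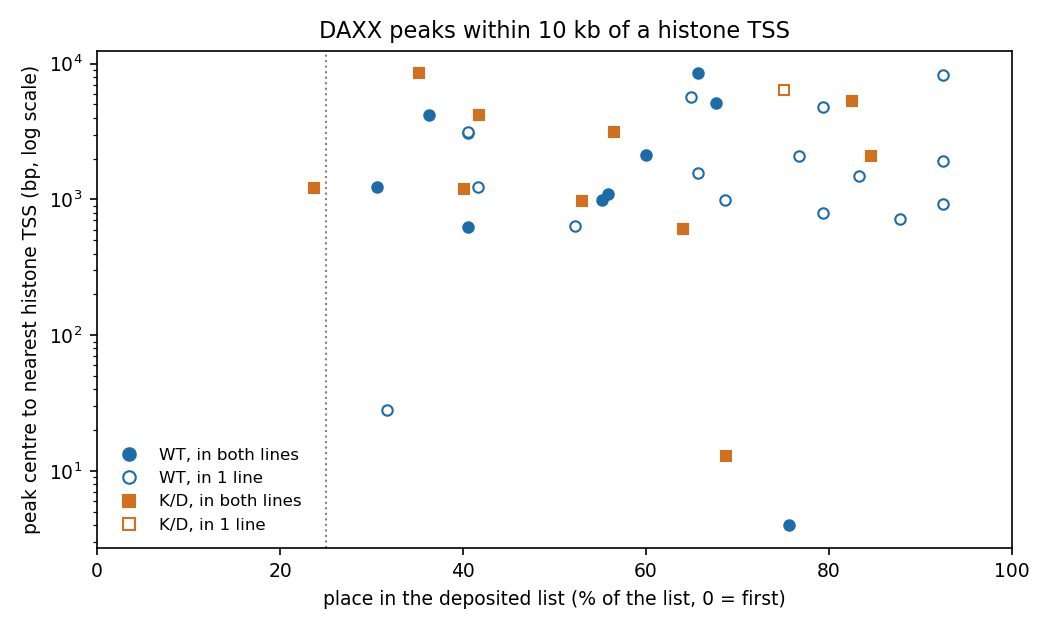
Each DAXX peak within 10 kb of a histone TSS by its place in the deposited list (percent, 0 = first) and its distance to the nearest histone TSS (bp, log axis). Circles are WT and squares K/D peaks, filled where the other line has an overlapping peak, and the dotted line ends the first 25% of the list. No WT circle lies left of the line, and the 10 filled circles have a median place of 55.5% against 76.7% for the 15 open ones.

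The sequences of the first WT peak (nearest H2AC15) and of the shared WT peak nearest to H2BC3 (chr6:26044477-26044649) are given on the plus strand, as an AP-1-bearing and an AP-1-free site that DAXX lists of both lines held. Capitals mark CCAAT and TGAGTCA on either strand.

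WT DAXX peak at H2AC15: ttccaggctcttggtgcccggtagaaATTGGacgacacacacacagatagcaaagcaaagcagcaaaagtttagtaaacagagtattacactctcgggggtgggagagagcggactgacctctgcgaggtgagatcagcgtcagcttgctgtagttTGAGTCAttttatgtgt

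WT DAXX peak at H2BC3: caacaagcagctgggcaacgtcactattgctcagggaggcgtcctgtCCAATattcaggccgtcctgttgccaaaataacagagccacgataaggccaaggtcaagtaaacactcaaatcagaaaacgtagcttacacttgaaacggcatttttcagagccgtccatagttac

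TGAGTCA was found in 4 of the 25 WT peaks near histone genes (16%), against 34.9% of the whole WT list, and in 3 of the 11 K/D peaks (27.3%) against 33.9%. CCAAT was found in 8 of 25 (32%, against 20.2%), GGTCCG in 3 (12%, against 1.37%), an E2F site in 1 (4%, against 0.137%) and the octamer in 0 of 25 (against 1.15%). TATAAA was found in 3 of 25, 12% against 12.7% of the list. Median GC content was 49.7% in the WT peaks near histone genes and 44.5% in the list. The lists also hold peaks more than 10 kb from any protein-coding TSS, and motifs were not counted in the peaks near any gene alone.

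Most of these peaks had their centre downstream of the nearest histone start, inside the gene or past it. In WT cells this held for 19 of 25 (76.0%, 54.9 to 90.6%), against 49.0% downstream of the nearest start for WT peaks near any gene. In K/D cells it was 8 of 11 (72.7%, 39.0 to 94.0%) against 47.5%. A head-to-head pair leaves only the short stretch between its starts as upstream, and 11 WT peaks were nearest to a paired gene, 10 of them downstream. Nearest to an unpaired gene were 14, of which 9 (64.3%) lay downstream. Pairs were sought among the 64 genes alone, so a gene whose partner was not matched, as H2BC7 or H2BC8 could be, counts as unpaired. This split is thus uncertain. The annotation also holds 12 pseudogenes named after H2A, H2B, H3 or H4 cluster genes, chosen for a look after the values were seen. WT DAXX peaks overlapped 3 of them, H2AC5P, H3C5P and H4C10P, and K/D peaks H2AC5P and H3C5P. No share was computed for other pseudogenes or for like stretches of DNA, so these counts have no comparison. The H2BC3 peak printed above is the one on H2AC5P (chr6:26044217-26044585). WT peaks overlapped the canonical transcripts of 2 of the 64 histone genes. Other WT peaks lay in longer transcripts of these genes, as in UTRs of H2BC26 and H4C16 and introns of H2BC11, H2AC25, H2BC4 and H3C12.

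At H3(Lys4), 51 WT and 57 K/D regions lay within 10 kb of a histone TSS, or 95.9 and 107 per Mb against 59.7 in each line over the windows of all genes. They covered 13.9% of the windows in WT and 10.9% in K/D cells, against 8.48% and 6.58% over all genes. Per Mb the histone windows thus held more regions than gene windows at large in both lines. Overlapping windows were merged, and histone starts are packed, with 64 genes in 532 kb against 19811 in 412 Mb. Per gene the order turned, with 51 and 57 regions for 64 genes against 24618 and 24597 for 19811 genes. A K/D counterpart was found for 34 WT regions (66.7%, 52.1 to 79.2%, against 58.1%), and 36 K/D regions had a WT counterpart (63.2%, 49.3 to 75.6%, against 62.8%). Gene by gene, 53 of 64 (82.8%) had a region in both lines, 3 in WT alone, 1 in K/D alone and 7 in neither, against 62.9%, 8.36%, 7.48% and 21.3% of all genes.

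The 3 genes with a region in WT cells alone, H3C8, H2BC10 and H4C8, are the last 3 of the large group on chromosome 6. Their nearest region centre was at 2286, 768 and 1300 bp in WT and at 20151, 21669 and 11490 bp in K/D cells. H4C8 is also the gene whose WT DAXX peak 28 bp from the start had no K/D partner, while H3C8 and H2BC10 had no DAXX peak within 10 kb in either line (14093 and 12575 bp in WT). The gene with a region in K/D cells alone was H4C4, at 5548 bp, where the nearest WT region lay at 11233 bp. These 4 genes were singled out after their values were seen, and the difference between the lines was not tested.

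The genes without an H3(Lys4) region in either line were H4C14, H4C15, H2AC1, H2BC1, H2BC6, H2BC12 and H2AC12. H4C14 and H4C15 have no unique sequence within 1 kb, and H2AC1 and H2BC1 are the testis pair, whose nearest WT region was 55093 bp away. H2BC12 and H2AC12 form a pair whose nearest region was at 12975 bp in WT and 10064 bp in K/D cells, and H2BC6 had regions at 10146 and 10800 bp. All 6 H1 genes had a region in both lines, as did 14 of 16 H2A genes in each line. H2B had 13 and 12 of 16, H3 13 and 12 of 13, and H4 10 and 10 of 13 in WT and K/D cells.

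The H3(Lys4) regions that came first in each list were wide. In WT they were the region nearest to H3C10 at place 1102 (chr6:27776768-27782051, 5284 bp), one at H4C16 at place 1756 (6357 bp) and one at H2AC19 at place 1848 (2621 bp). In K/D cells they were at H3C14 at place 411 (chr1:149815176-149818707, 3532 bp), at H2AC14 at place 864 (chr6:27778538-27782211, 3674 bp) and at H2AC19 at place 1194 (2423 bp). The region at place 411 lay 4161 bp from H3C14 but 2463 bp from HIST2H2AA3, the H2A gene left out for its older symbol. The H3C10 region in WT and the H2AC14 region in K/D cells overlap each other, and H2AC19 was among the first 3 in both lines. Regions shared between the lines had a median width of 1199 bp in WT and 906 bp in K/D cells, against 501 and 643 bp for the others. An overlap of 1 bp was enough to count as shared, which by itself favours wide regions. Near histone genes the median width was 1078 bp in WT and 755 bp in K/D cells, against 756 and 644 bp in the whole lists. The whole lists also hold regions more than 10 kb from any protein-coding TSS.

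H3(Lys4) regions flanked the histone starts and seldom covered them. A region covered the canonical TSS of 5 genes in WT cells (7.81%, against 21.9% of all genes), namely H3C13, H1-4, H3C10, H2AC15 and H2AC16, and of 1 gene in K/D cells (1.56%, against 11.8%), H3C6. Among the rest, regions reached within 3 kb on both sides of the TSS at 19 genes in WT (29.7%, against 19.8%) and 27 in K/D cells (42.2%, against 20.7%). They did so on 1 side at 27 (42.2%, against 18.7%) and 16 genes (25%, against 26.7%), and on neither side at 13 (20.3%, against 39.6%) and 20 (31.2%, against 40.8%). The median distance to the nearest region centre was 1616 bp in WT and 1420 bp in K/D cells, slightly farther than the 1156 and 1306 bp of all genes.

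**Figure D5:**
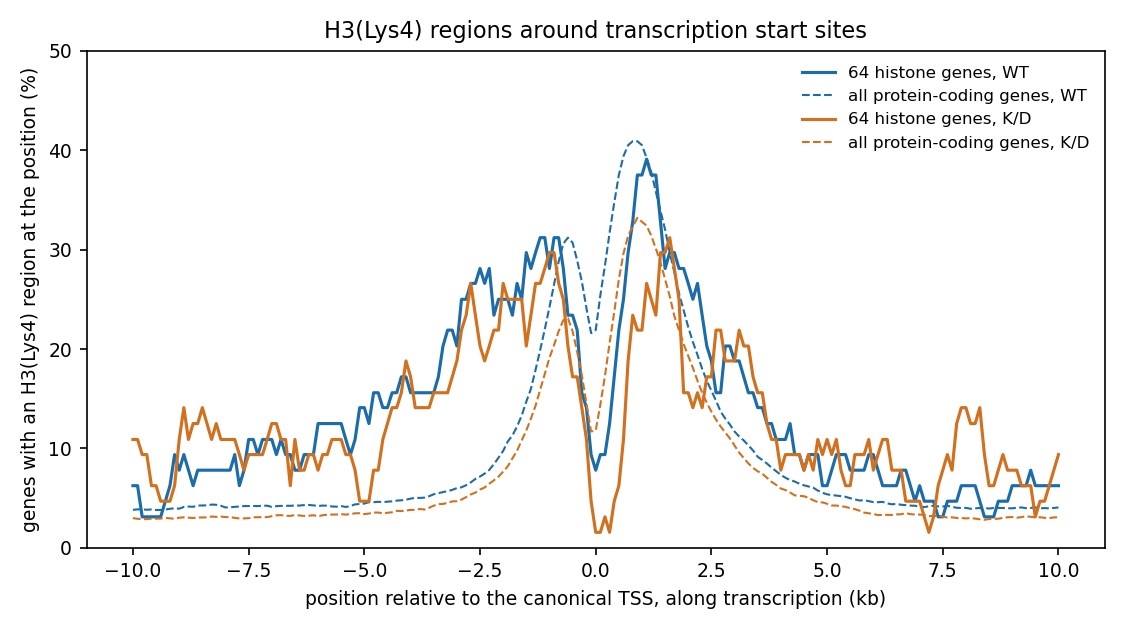
Percent of genes with an H3(Lys4) region at each position from 10 kb upstream to 10 kb downstream of the canonical TSS, for the 64 histone genes (solid) and all protein-coding genes (dashed) in WT and K/D cells. The histone genes had 7.81% (WT) and 1.56% (K/D) at the TSS, with maxima of 39.1% at +1100 bp in WT and 31.2% at +1600 bp in K/D cells, and lay above all genes from 3 to 5 kb on either side.

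DAXX peaks near histone genes coincided with H3(Lys4) regions about as often as other DAXX peaks near genes in WT cells. There, 11 of the 25 (44%, against 45.8%) overlapped a WT region and 6 (24.0%, against 29.0%) a K/D region. Of the 11 K/D DAXX peaks 5 (45.5%, against 40.0%) overlapped a WT region and 0 a K/D region (against 33.3%). Among the genes with an H3(Lys4) region in the same line, 38 of 56 histone genes (67.9%) had a DAXX peak within 10 kb in WT and 22 of 54 (40.7%) in K/D cells, against 64.8% and 53.0% of such genes overall. The WT share thus differed little from the genes with a region at large, and the K/D share was below it. H2AC7, H2AC17 and H2BC4 were among the genes with an H3(Lys4) region and no DAXX peak within 10 kb in K/D cells.

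For DNMT1 a single WT peak lay near a histone gene (chr6:26121594-26121722, place 1860 of 2237), in an intron of a longer H2BC4 transcript, 2480 bp from its start and 2742 bp from that of its partner H2AC6. It overlapped H3(Lys4) regions of both lines, no DAXX peak and no K/D DNMT1 peak, where 11.8% of WT DNMT1 peaks near any gene had a K/D partner. The sequence holds TGACTCA, the other strand of the AP-1 site, in capitals.

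WT DNMT1 peak at H2BC4: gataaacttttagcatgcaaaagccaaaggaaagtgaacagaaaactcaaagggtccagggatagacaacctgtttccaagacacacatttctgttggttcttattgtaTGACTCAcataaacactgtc

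No other histone gene had a DNMT1 peak within 10 kb. The median distance to one was 793676 bp in WT and 4386182 bp in K/D cells, against 589170 and 2309712 bp over all genes, and the few peaks in the DNMT1 lists limit what could be seen.

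Genes that work with the cluster genes were counted in the same way. Of 10 replication-independent histone variants, DAXX peaks lay within 10 kb of 6 in WT and of 3 in K/D cells, and 10 had an H3(Lys4) region in each line. H3-3A, which encodes H3.3, was 179 bp from a WT and 27115 bp from a K/D DAXX peak, while H3-3B, which encodes the same protein, was 40938 and 46812 bp from one. MACROH2A1, the gene of a large H2A variant, had peaks at 119 bp in WT and 105 bp in K/D cells. Of 10 genes for histone gene transcription and mRNA processing 5 had a WT and 4 a K/D peak. NPAT was 82 bp from a WT and 101231 bp from a K/D peak, LSM10, a subunit of the U7 particle that cuts histone mRNAs, 105 and 23157 bp, and POU2F1, the octamer factor, 30529 and 1120 bp.

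Chaperones were split by the H3 form they carry. Of 5 for replication-coupled H3, CHAF1A (114 bp in WT, 104 bp in K/D) and ASF1B (647 and 61 bp) had DAXX peaks within 10 kb in both lines and CHAF1B, ASF1A and NASP in neither. Of 5 for H3.3 all had one in WT and 4 in K/D cells, where UBN1 was 30618 bp from the nearest. DAXX itself had peaks at 2420 bp in WT and 71 bp in K/D cells. None of the genes in these 4 lists had a DNMT1 peak within 10 kb in either line. Of 2 non-histone genes that lie between the outermost genes of a group, 1 had a WT DAXX peak and none a K/D DAXX peak, but that gene has the same start as H2AC7 and the peak is the one counted there. Against the 51.2% and 41.8% of all genes, lists of 5 to 10 genes allow no statement beyond these counts.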

How the data were processed

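ChIP-Seq libraries of PC3 cells (WT and DAXX K/D) for DAXX, DNMT1 and H3(Lys4), with 2 input libraries that have no list here, form 8 groups of 1 library, taken from the sample titles. By their labels and methods text, the authors called bases with CASAVA 1.8.2, mapped to hg19 with Bowtie2 2.1.0 and called peaks with HOMER 4.6. Per the file headers, peaks had to exceed the input 4.00-fold at a Poisson p-value limit of 1.00e-04, DAXX and DNMT1 peaks also the surrounding 10 kb 4-fold at an FDR of 0.001. The score that the authors deposited is 1 for every peak and could not rank them, so the place in the deposited order was used, which is less certain for H3(Lys4). Peak positions were used as deposited, without 113 that lie on unplaced or other contigs.

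Genes and sequence came from GENCODE release 44 on GRCh37, the build of hg19 (55870 distinct protein-coding starts, basic transcripts, 72 of them of members). Peaks were counted once, by the nearest histone TSS, and overlaps needed 1 bp. Shares carry exact (Clopper-Pearson) 95% intervals for counting error only. Promoter windows and motifs were read from the genome. Peaks and genes are named by rule: a DAXX peak within 1 kb, a DNMT1 peak within 10 kb, the gene nearest to a WT DAXX peak for each type and group, the first 3 peaks of each DAXX and H3(Lys4) list, and genes with no H3(Lys4) region. The members, lists and motifs were chosen with earlier results of these data known. Scripts were tested on simulated data with planted peaks. Python 3.11.15, numpy 2.4.6, scipy 1.17.1 and matplotlib 3.10.9 were used.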

Additional observations from a re-analysis of the deposited data

How the results depend on the processing

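No paired analysis was possible because each group holds 1 library, and no library could be left out. With a limit of 5 kb the share of histone genes with a DAXX peak fell to 48.4% (WT) and 21.9% (K/D) (all genes 41.1% and 32.4%). That with a K/D H3(Lys4) region fell to 71.9% (all genes 64.5%). With 1 kb these 3 shares were 14.1%, 6.25% and 29.7% (all genes 25.6%, 19.2% and 42.4%). The WT H3(Lys4) share was then 28.1% (all genes 46.2%) and the WT DNMT1 share 0% (all genes 0.742%). H3(Lys4) shares thus lay above all genes at 10 kb and below them at 1 kb (all genes 46.2% in WT and 42.4% in K/D). Peaks within 1 kb numbered 9 and 3 for DAXX (WT and K/D), 0 for WT DNMT1, and 16 and 16 for H3(Lys4). In the first 50% of each list the DAXX shares were 25% and 17.2% (all genes 29.7% and 24.1%). The others were 0% for WT DNMT1 (all genes 1.30%) and 65.6% for K/D H3(Lys4) (all genes 59.4%). WT DAXX, K/D DAXX and WT DNMT1 then had 7, 4 and 0 peaks. With lists of equal length WT DAXX had 16 peaks and 43.8% of genes (all genes 39.6%), and WT DNMT1 0 peaks and 0% (all genes 0.707%). WT DAXX thus lay above all genes in the whole and the equal lists and below them in the first 50% and within 1 kb. The share of WT H3(Lys4) regions with a K/D partner was 29.4% when at least 50% of each had to overlap and 9.80% when centres had to lie within 100 bp. The cause of these moves was not tested. The other 74 of the values recomputed stayed within their interval or within 1.5 times the count, including those with edges in place of centres, with 1 start per gene, and, chosen after seeing the data, with the canonical start, without the 7 genes of low unique sequence and with HIST1H4B and HIST2H2AA3 added.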
